A study of Mus musculus with 12 samples.

Results

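The genes described here are those of the transforming growth factor beta (TGF-beta) and bone morphogenetic protein (BMP) family, with their receptors, Smad proteins and secreted regulators. They were chosen by symbol, which took the Tgfb, Bmp, Gdf and Inhb ligands, the Tgfbr, Bmpr and Acvr receptors, Smad1 to Smad9, Ltbp1 to Ltbp4, and Inha, Nog, Grem1, Chrd, Fst and Bambi. The rule found 59 of the 21960 genes listed. Bmp1, a secreted metalloprotease that trims procollagen and cleaves chordin, and Bmp2k, a protein kinase, carry the family's name without being ligands and were kept under it.

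Ligands of this family are secreted as dimers and bring together a type II and a type I receptor kinase, and the type I receptor then phosphorylates receptor-activated Smads. TGF-beta and activin mainly use Smad2 and Smad3, BMPs and several GDFs mainly use Smad1, Smad5 and Smad9, and both sets enter the nucleus with Smad4. TGF-beta is made in a latent form that latent TGF-beta binding proteins (LTBPs) hold in the matrix. In the mammary gland it restrains epithelial growth, and in mammary tumors it is known for its effects on fibroblasts, on invasion and on T cells and NK cells.

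The study asked how doxorubicin and an antibody that blocks the checkpoint receptor PD-1 act together on mouse mammary tumors. Tumors came from female C57BL/6 mice, whose age was not given, that carry the polyoma middle T oncogene (PyMT) under the MMTV promoter, so the oncogene is driven mainly in mammary epithelium and also in other glands that use this promoter. RNA of 12 snap-frozen whole tumors was sequenced, 3 in each of 4 groups. Labels number the tumors of a group 1 to 3, and values of a group are given in that order.

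Mice of the IgG1 group received the isotype control antibody and mice of the anti-PD-1 group the antibody clone 4H2, at 20 mg/kg and then at 10 mg/kg until day 18, from a tumor diameter of 0.6 cm. Mice of the DOX/IgG1 and DOX/anti-PD-1 groups started at 1 cm and received 5 mg/kg doxorubicin weekly, each time followed on the next day by 10 mg/kg of IgG1 or of anti-PD-1. The sample labels give 5 weeks of treatment for every group. A difference between tumors with and without doxorubicin therefore cannot be told apart from one due to tumor size at the start, the first antibody dose or the schedule.

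Values are TPM, a transcript's share of the RNA of a tumor scaled for gene length, so levels can be compared between genes. Between tumors they compare shares and not amounts of RNA. The listed genes summed to 609418 to 725506 TPM per tumor. Read numbers are not among the values used here, and how deeply each tumor was sequenced is not known. Epcam, Krt8 and Krt18, which mark luminal epithelium, were present in all 12 tumors, at means of 729, 353 and 573 TPM, and their lowest values were 418, 231 and 376 TPM.

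DOX/IgG1 tumor 1 stood apart from the rest. Its median correlation with the other tumors, across genes on the log2 scale, was 0.884, the lowest of the 12, and its highest, 0.892, was below the highest of every other tumor. It also had the most genes at 0, 8104 or 36.9%. DOX/anti-PD-1 tumor 3 came next by correlation, with a median of 0.888 and a highest of 0.904. Member results that moved most without DOX/IgG1 tumor 1 are also given without it, while counts and medians of gene lists by comparison include it unless stated.

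By mean TPM over the 12 tumors, 12 members were above 50, 14 between 10 and 50, 13 between 1 and 10 and 20 below 1. In every tumor 36 members were above 0. Bmp10 and Gdf2, whose proteins circulate and act on endothelium, were listed at 0 in every tumor. A minimum of 1 TPM in at least 3 of the 12 tumors was reached by 49 members, as by 14735 of all genes, and 10 members did not reach it. The heat map of all 59 genes in each tumor shows this layering, with most receptors, Smads and latent binding proteins bright and BMP and GDF ligands dark, the dark exceptions being Smad9, Smad6, Bmpr1b, Acvr1c and Acvr2b.

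**Figure D1:**
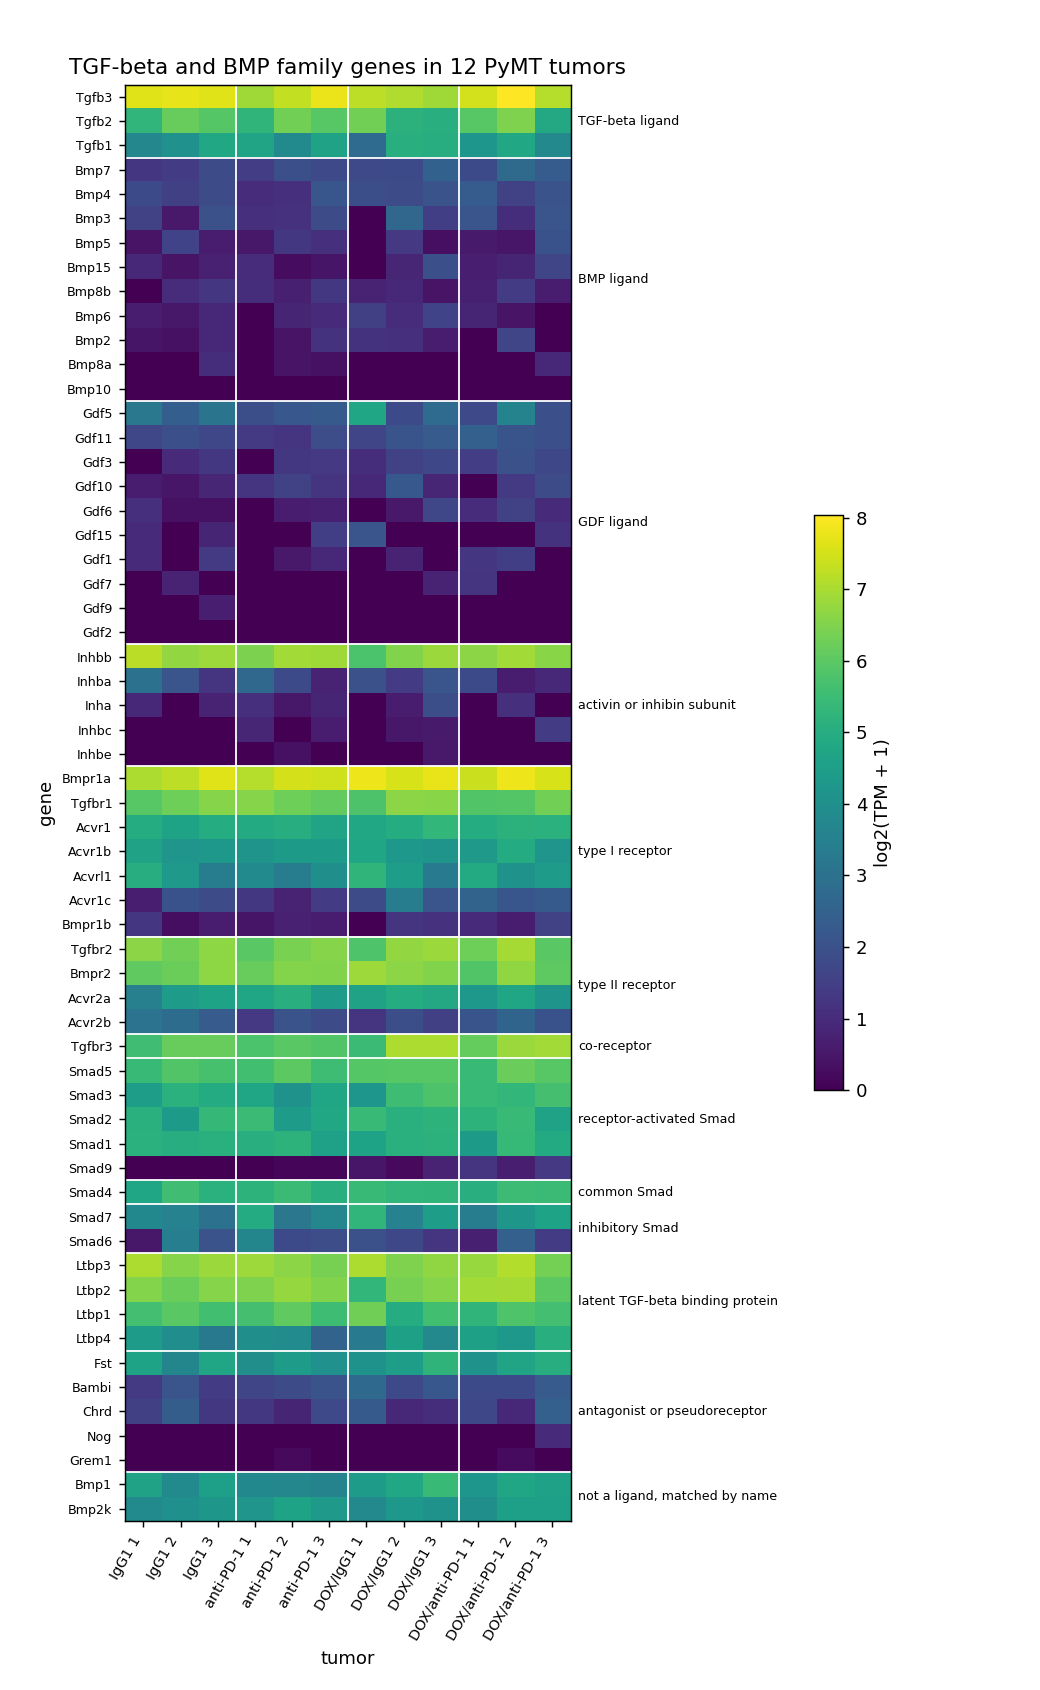
Level of each of the 59 genes (rows, grouped by role) in each of the 12 tumors (columns, white lines between the 4 groups), as log2(TPM + 1) on the color scale. Bmpr1a (mean 182 TPM) and Tgfb3 (mean 174 TPM) are the brightest rows, and Bmp10 and Gdf2 are at 0 throughout.

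Among the TGF-beta ligands, Tgfb3 was the most abundant. It stood at 197, 214 and 197 TPM with IgG1, 117, 157 and 223 with anti-PD-1, 148, 135 and 117 with DOX/IgG1, and 177, 261 and 140.2 with DOX/anti-PD-1. The order Tgfb3, Tgfb2, Tgfb1 held in 12 of 12 tumors. Tgfb3 made up 69.6% of the ligand RNA, between 62.8% and 79.7% in single tumors. Tgfb1, the form best known from platelets and immune cells, ran from 6.05 TPM in DOX/IgG1 tumor 1 to 32.8 TPM in DOX/IgG1 tumor 2, so both ends of its range came from the same group. The ratio of Tgfb3 to Tgfb1 ran from 3.73 to 24.5.

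BMP and GDF ligands were sparse. The 10 BMP ligands together reached 4.78% of the TGF-beta ligand sum. Bmp7, an epithelial BMP, had the highest mean of them, at 1.42, 1.62 and 2.58 TPM with IgG1, 1.73, 2.93 and 2.40 with anti-PD-1, 2.40, 2.46 and 4.60 with DOX/IgG1, and 2.50, 5.80 and 4.08 with DOX/anti-PD-1. It led the BMPs in 5 of the 12 tumors, so their order differs from tumor to tumor. Gdf5, a ligand known from joint formation, led the GDFs in 10 tumors, at 8.29, 4.33 and 7.61 TPM with IgG1, 2.79, 3.49 and 3.87 with anti-PD-1, 25.2, 2.51 and 6.06 with DOX/IgG1, and 2.40, 11.0 and 2.90 with DOX/anti-PD-1. Its peak was the tumor that stood apart.

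Activin and inhibin subunits were nearly all Inhbb, which forms activin B and gave 96.5% of their RNA. Inhbb stood at 147, 106 and 115 TPM with IgG1, 86.3, 121 and 118 with anti-PD-1, 52.6, 90.6 and 112 with DOX/IgG1, and 97.9, 121 and 97.4 with DOX/anti-PD-1. Its lowest value was again DOX/IgG1 tumor 1. Inhba, which forms activin A, averaged 2.69 TPM.

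The type I receptor Bmpr1a, which carries BMP signals, was the most abundant member of all. It stood at 130.1, 148 and 199 TPM with IgG1, 139.8, 183 and 175 with anti-PD-1, 228, 186 and 218 with DOX/IgG1, and 166, 227 and 186 with DOX/anti-PD-1. It gave 54.8% of type I receptor RNA and was ahead of the TGF-beta receptor Tgfbr1 (mean 75.9 TPM) in every tumor. These tumors thus held abundant RNA for a BMP receptor beside little RNA for BMP ligands.

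Type II receptors were led by Tgfbr2, which binds TGF-beta first. Tgfbr2 stood at 98.8, 79.7 and 101 TPM with IgG1, 62.3, 84.5 and 94.5 with anti-PD-1, 55.2, 106 and 112 with DOX/IgG1, and 75.5, 122 and 62.7 with DOX/anti-PD-1. It was the highest of the 4 in 7 tumors. Bmpr2, the BMP type II receptor, had a mean of 85.1 TPM, so the order of these 2 genes was not fixed. Acvr2a and Acvr2b, which serve activins and BMPs, averaged 22.9 and 3.51 TPM.

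Among receptor-activated Smads the order by mean TPM was Smad5 (55.2), Smad3 (33.5), Smad2 (33.1), Smad1 (31.0) and Smad9 (0.415). Smad5 stood at 42.9, 57.2 and 51.2 TPM with IgG1, 47.2, 63.2 and 45.2 with anti-PD-1, 59.4, 61.1 and 60.7 with DOX/IgG1, and 42.4, 71.7 and 60.7 with DOX/anti-PD-1. It was the highest of the 5 in 12 of 12 tumors, while Smad1, Smad2 and Smad3 lay within their spread of each other. Smad4, the shared partner, stood at 26.2, 46.3 and 34.4 TPM with IgG1, 35.4, 43.9 and 32.9 with anti-PD-1, 43.0, 38.4 and 37.2 with DOX/IgG1, and 32.6, 44.6 and 43.2 with DOX/anti-PD-1.

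Smad7, the inhibitory Smad that TGF-beta itself induces, stood at 12.5, 10.8 and 7.24 TPM with IgG1, 29.5, 8.04 and 12.3 with anti-PD-1, 38.5, 10.8 and 21.5 with DOX/IgG1, and 9.39, 17.9 and 24.1 with DOX/anti-PD-1. Single tumors in 2 groups, anti-PD-1 tumor 1 and DOX/IgG1 tumor 1, were far above their group mates. Smad6, the inhibitory Smad of BMP signaling, ran from 0.44 to 11.8 TPM, the widest spread within groups of the members shown here.

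Of the latent binding proteins, Ltbp3 stood at 132, 95.1 and 112 TPM with IgG1, 115, 98.0 and 82.2 with anti-PD-1, 131, 87.5 and 103 with DOX/IgG1, and 109.8, 137 and 81.2 with DOX/anti-PD-1. The groups overlapped throughout. Means of Ltbp2, Ltbp1 and Ltbp4 were 89.0, 51.5 and 16.3 TPM. The secreted antagonists were mostly Fst, follistatin, which traps activins, at 24.3, 12.0 and 25.3 TPM with IgG1, 14.6, 20.5 and 15.8 with anti-PD-1, 16.3, 21.7 and 36.1 with DOX/IgG1, and 16.7, 24.9 and 30.9 with DOX/anti-PD-1. The BMP antagonists Nog and Grem1 were near 0, Nog with 1.00 TPM in DOX/anti-PD-1 tumor 3 and 0 in the other 11, and Grem1 above 0 in 2 tumors, at most at 0.19 TPM.

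Among members with a mean above 10 TPM, the tumor that stood apart was the lowest of 12 for Inhbb, Ltbp2, Tgfbr1, Tgfbr2, Tgfbr3, Tgfb1 and Bmp2k, and the highest for Bmpr1a, Bmpr2, Ltbp1, Acvrl1 and Smad7. Of the less abundant members, it was the highest for Gdf5, Bambi and Gdf15, the lowest for Acvr2b, and the only tumor at 0 for Bmp3, Bmp5, Bmp15 and Bmpr1b. Over all members the summed level ran from 1335 TPM in anti-PD-1 tumor 1 to 1945 TPM in DOX/anti-PD-1 tumor 2. The median spread within groups, as SD on the log2 scale, was 0.448 for the members and 0.478 for all genes.

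Members lie on 20 chromosomes (GRCm38/mm10, GENCODE vM21). Within 200000 bases of each other lie Smad3 and Smad6, Acvr1 and Acvr1c, Acvr1b and Acvrl1, Gdf10 and Gdf2, Bmp8b and Bmp8a, and Inhbc and Inhbe. Neighbours differed in level. Smad3 averaged 33.5 TPM beside Smad6 at 3.64, and Acvr1 averaged 30.6 TPM beside Acvr1c at 3.13, whereas Acvr1b and Acvrl1 were alike at 20.3 and 19.2 TPM. Gdf1 overlaps Cers1 on the same strand, and Bmp8a and Bmp8b are near copies, so reads of these genes may not be assigned with certainty.

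The broadest question is what doxorubicin does to these genes on average over both antibodies, 6 tumors against 6. The members with the clearest differences were all higher with doxorubicin: the protease Bmp1, the receptor Acvr1c, the co-receptor Tgfbr3, the TGF-beta Smad Smad3 and the ligand Gdf3. None of them passed the limits taken from the study, an adjusted p below 0.1 and a log2 fold change above 1 in size. The study applied these limits with DESeq2 to pairs of groups, and here they are applied with limma, also to averages the study did not test. Of the 49 members tested with limma, 0 were called, against 13 of 14735 genes (0.0882%). An unadjusted p below 0.05 was reached by 5 members (10.2%), all higher, against 1751 genes (11.9%), a share near that of all genes.

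Bmp1 (chr14:70474558-70520234) stood at 24.0, 12.9 and 22.1 TPM with IgG1, 12.4, 12.1 and 11.1 with anti-PD-1, 20.7, 26.7 and 41.2 with DOX/IgG1, and 17.6, 25.3 and 23.4 with DOX/anti-PD-1. The anti-PD-1 group was the lowest and tightest, and doxorubicin tumors overlapped the IgG1 tumors. The doxorubicin average was a log2 difference of 0.69 (SE 0.23, 95% interval 0.20 to 1.18, limma unadjusted p = 0.00885, adjusted p = 0.277).

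Acvr1c (chr2:58267453-58357895), the type I receptor ALK7 for Nodal, activin B and Gdf3, is known from fat cells. It stood at 0.61, 3.05 and 2.55 TPM with IgG1, 1.49, 0.72 and 1.70 with anti-PD-1, 2.58, 9.27 and 3.38 with DOX/IgG1, and 4.94, 3.42 and 3.86 with DOX/anti-PD-1. The 3 DOX/anti-PD-1 tumors were above all 6 tumors without doxorubicin, and DOX/IgG1 tumor 2 was the peak. Its doxorubicin average of 1.04 on the log2 scale (SE 0.35, 95% interval 0.28 to 1.80) was the largest of the members, with a limma adjusted p of 0.285.

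Gdf3 (chr6:122605403-122610087), a ligand of Acvr1c also studied in fat tissue, stood at 0, 0.95 and 1.47 TPM with IgG1, 0, 1.47 and 1.54 with anti-PD-1, 1.06, 1.96 and 2.37 with DOX/IgG1, and 1.75, 3.01 and 2.38 with DOX/anti-PD-1. Of the 6 doxorubicin tumors, 5 were above every tumor without it. The log2 difference was 0.78 (SE 0.36, 95% interval 0.01 to 1.55, limma adjusted p = 0.416).

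Tgfbr3 (chr5:107106570-107289629), betaglycan, presents TGF-beta2 to the type II receptor and binds inhibin. It stood at 47.0, 71.5 and 70.5 TPM with IgG1, 53.7, 62.5 and 56.2 with anti-PD-1, 43.2, 132 and 130.5 with DOX/IgG1, and 69.2, 112 and 121 with DOX/anti-PD-1. Tumors 2 and 3 of both doxorubicin groups were above all 6 tumors without doxorubicin, and DOX/IgG1 tumor 1 was the lowest of the 12. The doxorubicin average was 0.65 (SE 0.27, 95% interval 0.08 to 1.23, limma adjusted p = 0.361).

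Smad3 (chr9:63646767-63757994) stood at 21.2, 34.1 and 29.9 TPM with IgG1, 26.0, 16.6 and 25.3 with anti-PD-1, 17.8, 45.4 and 53.8 with DOX/IgG1, and 41.9, 39.3 and 50.1 with DOX/anti-PD-1. Leaving aside DOX/IgG1 tumor 1, every doxorubicin tumor was above every tumor without doxorubicin. The average difference was 0.63 (SE 0.26, 95% interval 0.08 to 1.19, limma adjusted p = 0.361).

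Smad9 (chr3:54755582-54801257), a BMP Smad, was below the minimum and not tested. It was listed at 0, 0 and 0 TPM with IgG1 and 0, 0.11 and 0.10 with anti-PD-1, and stood at 0.41, 0.15 and 0.73 TPM with DOX/IgG1 and 1.36, 0.58 and 1.54 with DOX/anti-PD-1. It was the only member whose 6 doxorubicin tumors did not overlap the 6 others, which held for 107 of 17746 genes (0.603%). All its values are low, and how many reads they rest on is not known.

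**Figure D2:**
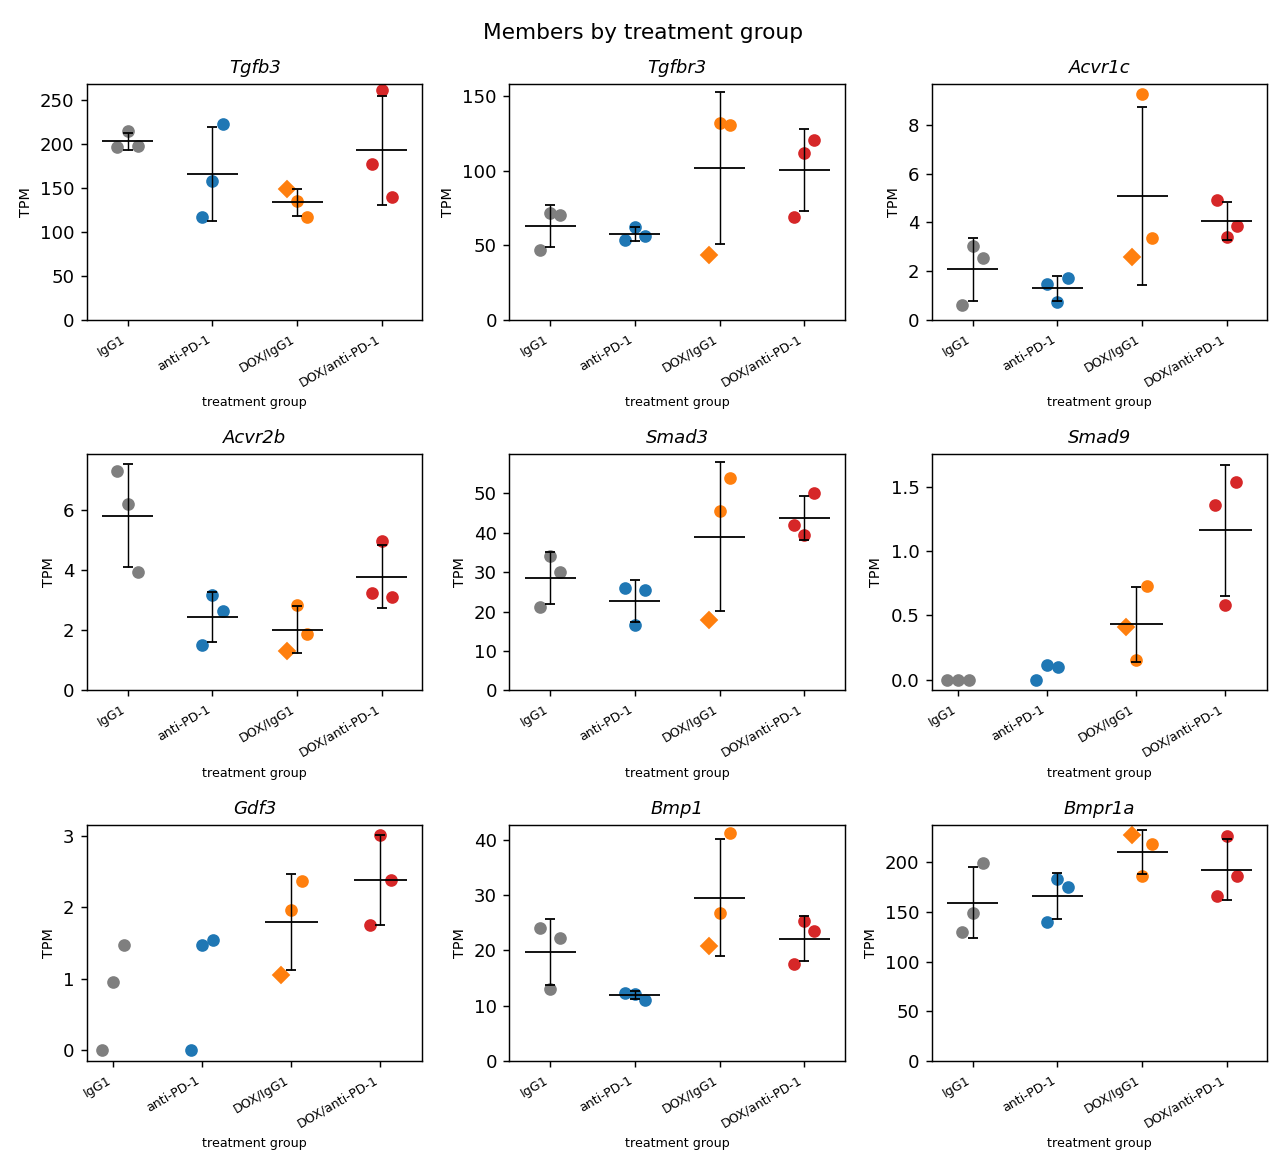
TPM of 9 members in the 12 tumors, by treatment group; each dot is a tumor, the diamond is DOX/IgG1 tumor 1, and the line with bars is the group mean ± SD (n = 3), left out for groups with a tumor at 0. For Smad3 the diamond lies at 17.8 TPM while the other 5 doxorubicin tumors lie between 39.3 and 53.8.

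The diamond in these plots is DOX/IgG1 tumor 1, whose removal moved several values. Without it, limma gave Tgfbr3 a doxorubicin average of 0.92 (adjusted p = 0.0424, range over all alternatives 0.0424 to 0.552) and Smad3 one of 0.87 (adjusted p = 0.0558, range 0.0558 to 0.567), both under the adjusted limit and short of the fold limit. Bmp1 came to 0.80, Acvr1c to 1.19 and Gdf3 to 0.88, above the adjusted limit. In the same fit 301 genes were called (2.04%) and 418 (2.84%) had an adjusted p below 0.1, so the count grew for all genes and not for these members alone. When any of the other 11 tumors was left out instead, 0 members came under the adjusted limit.

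In sign, 32 members were higher and 17 lower with doxorubicin, 65.3% higher beside 63.3% of all genes. The median log2 difference was 0.18 for members and 0.12 for all genes tested. Scaling by the median of ratios moved the median of all genes to 0.01 and that of the members to 0.05. The number of members with an unadjusted p below 0.05 then went from 5 to 2, Bmp1 at 0.57 (limma unadjusted p = 0.0256) and Acvr1c at 0.97 (limma unadjusted p = 0.0136), both still higher. The share of all genes with such a p under this scaling is not given, so this drop has no background beside it. Smad3 at 0.52, Tgfbr3 at 0.53 and Gdf3 at 0.73 also kept their direction.

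By role, 6 of 8 tested BMP ligands, 5 of 7 GDF ligands, 6 of 7 type I receptors and 3 of 4 receptor-activated Smads were higher with doxorubicin, while 3 of 3 activin or inhibin subunits and 2 of 3 TGF-beta ligands were lower. Latent binding proteins and type II receptors split evenly. The largest negative difference was that of Smad6, −0.64. The plot of the average effect with its intervals shows that those of all members but 5 include 0.

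**Figure D3:**
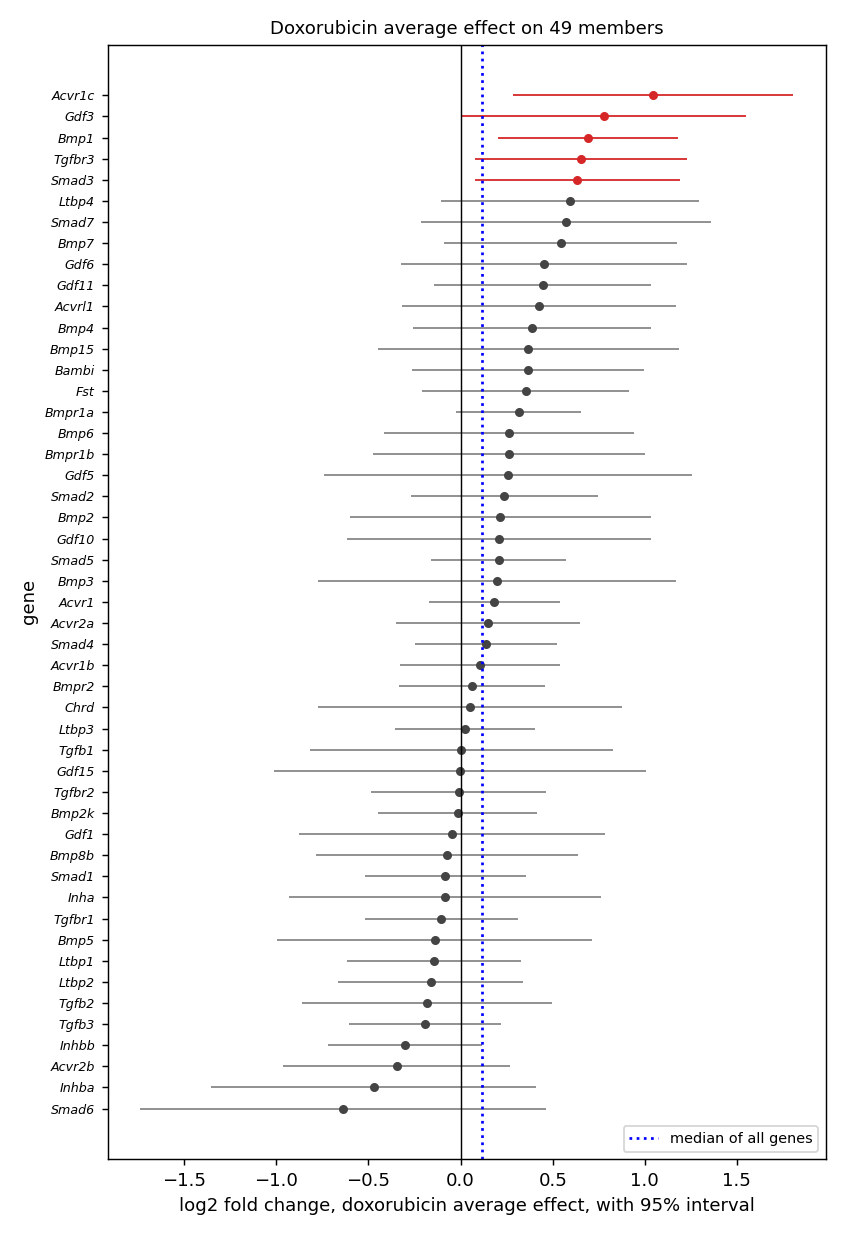
Doxorubicin average effect on the 49 tested members as log2 fold change (x axis) with 95% interval, in order of size; red marks unadjusted limma p below 0.05 and the dotted line is the median of all genes (0.12). Acvr1c (1.04) is at the top and Smad6 (−0.64) at the bottom, and 0 of the 49 pass the adjusted test.

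Promoters are shown for Acvr1c, Smad3 and Smad9, of which none passed the test and Smad9 was not tested, as the 250 bases before the RefSeq gene start on the gene's strand (GRCm38.p6). RefSeq entries were matched for 42 of 59 members, and for 3 of the 6 members just described, while Bmp1, Gdf3 and Tgfbr3 were not matched. Capitals mark matches, on either strand, to GGGCGG, the GC box of Sp1, or to GGCGCC, a GC-rich element of BMP Smads; CAGAC, the Smad3 and Smad4 element, was searched as well. Matches in the printed windows share no bases. The RefSeq start of Acvr1c lies 137 bases inside the GENCODE gene given above, so over that length its window overlaps the gene.
Acvr1c, chr2:58357759-58358008, minus strand: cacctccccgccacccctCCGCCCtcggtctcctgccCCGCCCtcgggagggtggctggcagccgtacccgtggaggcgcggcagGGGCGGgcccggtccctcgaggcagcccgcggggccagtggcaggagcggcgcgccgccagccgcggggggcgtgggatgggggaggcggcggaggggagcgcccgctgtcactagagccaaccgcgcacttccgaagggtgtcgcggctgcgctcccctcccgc
Smad3, chr9:63757995-63758244, minus strand: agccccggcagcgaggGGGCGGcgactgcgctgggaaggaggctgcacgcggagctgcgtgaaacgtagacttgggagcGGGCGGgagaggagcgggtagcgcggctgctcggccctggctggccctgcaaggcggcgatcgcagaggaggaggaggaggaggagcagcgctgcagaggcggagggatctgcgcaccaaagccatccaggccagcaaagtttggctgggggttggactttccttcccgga
Smad9, chr3:54755332-54755581, plus strand: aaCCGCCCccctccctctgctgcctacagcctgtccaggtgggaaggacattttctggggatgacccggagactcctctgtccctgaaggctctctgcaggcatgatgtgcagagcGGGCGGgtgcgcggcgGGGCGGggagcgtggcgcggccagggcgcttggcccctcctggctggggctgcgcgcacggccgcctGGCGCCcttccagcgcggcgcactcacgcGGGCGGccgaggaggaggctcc
All of these windows are rich in G and C. GGGCGG occurred 3 times for Acvr1c, 2 times for Smad3 and 4 times for Smad9, GGCGCC occurred 1 time, for Smad9, and CAGAC did not occur in these windows. Of 32851 mouse promoters of this length, 32.74% hold GGGCGG, 9.586% GGCGCC and 42.19% CAGAC. A match describes the letters only.

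Doxorubicin under the control antibody, DOX/IgG1 against IgG1, had its smallest member p-values for the ligand Tgfb3 and the receptor Acvr2b, in a count below the share of all genes. Tgfb3 was at 133 ± 15.6 TPM (SD, n = 3) with DOX/IgG1 and at 203 ± 9.93 TPM (SD, n = 3) with IgG1, and the 3 values of one group lay below the 3 of the other. Acvr2b (chr9:119402118-119434995), an activin type II receptor, stood at 7.30, 6.20 and 3.92 TPM with IgG1, 1.52, 3.16 and 2.64 with anti-PD-1, 1.31, 2.85 and 1.88 with DOX/IgG1, and 3.25, 4.97 and 3.10 with DOX/anti-PD-1. Smad7 had the largest positive difference, 1.00 on the log2 scale, with overlapping groups.

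Of 40 members tested in this comparison, limma called 0, against 5 of 13874 genes (0.036%). An unadjusted p below 0.05 was reached by 2 members (5%), both lower, against 1073 genes (7.73%). Tgfb3 differed by −0.61 (SE 0.21, limma unadjusted p = 0.0173, adjusted p = 0.552) and Acvr2b by −1.17 (SE 0.45, limma unadjusted p = 0.0279, adjusted p = 0.587). Groups did not overlap for 4 members (10%), Tgfb3 and Acvr2b lower and Bmp6 and Smad5 higher, against 1936 genes (14%). The median log2 difference was 0.13 for members and 0.12 for all genes.

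Without DOX/IgG1 tumor 1 this comparison has 2 doxorubicin tumors, 122 genes are called and 0 members. Tgfb3 then differed by −0.69 (limma unadjusted p = 0.0144), and Acvr2b was still lower (limma unadjusted p = 0.0571). Tgfbr3 came to 1.07 (limma unadjusted p = 0.00363) from 0.55, and Smad3 to 0.80 (limma unadjusted p = 0.0265) from 0.33. Of the members, 4 had an unadjusted limma p below 0.05. The share of all genes with such a p in this fit is not given, so this count has no background beside it. Smad7 went from 1.00 to 0.57, Gdf5 turned from 0.20 to −0.60 and Tgfbr2 from −0.09 to 0.23.

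Doxorubicin under PD-1 blockade, DOX/anti-PD-1 against anti-PD-1, is the comparison with the most separated members, and it does not contain the tumor that stood apart. Smad3 was at 43.8 ± 5.60 TPM (SD, n = 3) beside 22.6 ± 5.24 TPM (SD, n = 3), Tgfbr3 at 101 ± 27.6 beside 57.5 ± 4.54 TPM, and Bmp1 at 22.1 ± 4.05 beside 11.8 ± 0.696 TPM. Ltbp4, the latent binding protein of TGF-beta1, was at 24.6 ± 7.20 beside 11.2 ± 5.52 TPM, and Acvrl1, the endothelial receptor ALK1, at 22.0 ± 6.41 beside 12.6 ± 2.81 TPM (SD, n = 3 each).

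Of 41 members tested here, limma called 0, as it called 0 of 13736 genes (0%). An unadjusted p below 0.05 was reached by 6 members (14.6%), all higher, against 1185 genes (8.63%). Differences were 0.94 for Smad3 (SE 0.27, limma unadjusted p = 0.00615, adjusted p = 0.488), 1.17 for Ltbp4, 1.15 for Acvr1c, 0.83 for Bmp1, 0.76 for Tgfbr3 and 0.75 for Acvrl1. Groups did not overlap for 8 members (19.5%), these 6 with Gdf3 and Gdf11, all higher, against 2046 genes (14.9%). The largest negative difference was −0.93 for Smad6. The median was 0.15 for members and 0.11 for all genes, and with median-of-ratios scaling 0.03 and −0.01.

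These 2 doxorubicin comparisons share no tumor. Of 38 members tested in both, 21 were higher in both, 6 lower in both and 11 of opposite sign, so 71.1% shared a sign beside 58.9% of 13391 genes. The plot of one comparison against the other places Acvr1c, Gdf3, Bmp1 and Tgfbr3 together at the upper right, and Acvr2b and Tgfb3 on the left with positive values under anti-PD-1.

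**Figure D4:**
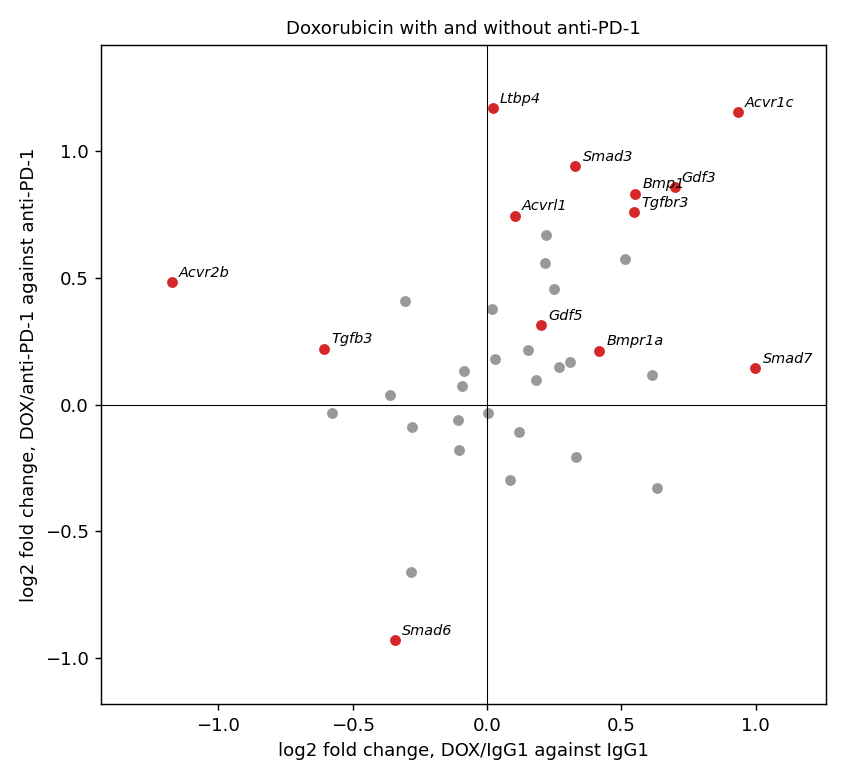
Log2 fold change of the 38 members tested in both doxorubicin comparisons, under IgG1 (x axis) and under anti-PD-1 (y axis); each dot is a gene and red dots are labelled. Acvr1c lies at 0.93 and 1.15, and Acvr2b at −1.17 and 0.48.

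PD-1 blockade without doxorubicin, anti-PD-1 against IgG1, had Acvr2b as the member with the smallest p. Acvr2b was at 2.44 ± 0.838 TPM (SD, n = 3) beside 5.81 ± 1.72 TPM (SD, n = 3). Bmp1 was at 11.8 ± 0.696 beside 19.7 ± 5.91 TPM and Gdf5 at 3.38 ± 0.548 beside 6.74 ± 2.12 TPM (SD, n = 3 each), each lower in every anti-PD-1 tumor. Gdf10, a BMP-like ligand also called BMP3b, was at 1.54 ± 0.385 beside 0.587 ± 0.221 TPM (SD, n = 3 each) and higher in every one.

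Of 41 members tested, limma called 0, as it called 0 of 13692 genes (0%). An unadjusted p below 0.05 was reached by 1 member (2.44%), Acvr2b at −0.98 (SE 0.40, limma unadjusted p = 0.0355, adjusted p = 0.996), against 630 genes (4.6%). Groups did not overlap for 4 members (9.76%), the 4 just named, against 1353 genes (9.88%). With the replicate block 0 members had an unadjusted limma p below 0.05. In sign 20 were higher and 21 lower.

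PD-1 blockade with doxorubicin, DOX/anti-PD-1 against DOX/IgG1, gave the smallest count. Acvr2b was higher in each of the DOX/anti-PD-1 tumors (0.67 on the log2 scale), and Bmp6, a BMP ligand best known from iron control, was lower in each (−0.98), with 1.86, 1.03 and 2.08 TPM beside 0.77, 0.33 and 0 TPM. Ltbp4 had the largest positive difference, 0.75. Of 43 members tested, limma called 0, as it called 0 of 13946 genes (0%), and 0 had an unadjusted p below 0.05, against 655 genes (4.7%). Groups did not overlap for 2 members (4.65%), Acvr2b and Bmp6, against 1425 genes (10.2%). Without DOX/IgG1 tumor 1, limma called 0 members and 4 genes, and 1 member had an unadjusted p below 0.05. The share of all genes with such a p in that fit is not given.

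Averaged over tumors with and without doxorubicin, 23 members were higher and 26 lower with the antibody, 46.9% higher beside 45.6% of all genes. Of 49 tested, limma called 0, against 1 of 14735 genes (0.00679%). An unadjusted p below 0.05 was reached by 1 member (2.04%), against 703 genes (4.77%). It was Bmp1 at −0.50 (SE 0.23, limma unadjusted p = 0.0443, adjusted p = 1.00), or −0.61 without DOX/IgG1 tumor 1 (limma unadjusted p = 0.0180). With the median of ratios or the replicate block 0 members had an unadjusted limma p below 0.05. Gdf5 had the largest negative average, −0.73, which was −0.33 without DOX/IgG1 tumor 1, and Bmp2k the largest positive one, 0.34.

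The interaction asks whether the doxorubicin difference depends on the antibody. Acvr2b and Tgfb3 had the clearest values, both being lower by mean TPM with DOX/IgG1 than with IgG1 and higher with DOX/anti-PD-1 than with anti-PD-1. Of 49 members, limma called 0, against 1 of 14735 genes (0.00679%). An unadjusted p below 0.05 was reached by 2 members (4.08%), against 694 genes (4.71%). Acvr2b had an interaction of 1.66 (SE 0.57, 95% interval 0.42 to 2.89, limma unadjusted p = 0.0122, adjusted p = 0.993) and Tgfb3 one of 0.83 (SE 0.38, 95% interval 0.00 to 1.65, limma unadjusted p = 0.0497, adjusted p = 0.993). Without DOX/IgG1 tumor 1 these were 1.48 and 0.91. The median of the members went from 0.15 to −0.05 without that tumor, and that of all genes from −0.01 to −0.06.

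Other genes of the pathway were followed through lists of its known targets and regulators, read by counts and medians and by a few named genes of each. Lists overlap in a few genes: Pmepa1, Ski, Skil and Tgif1 stand among TGF-beta responsive genes and intracellular modulators, Itgav and Thbs1 among responsive genes and extracellular regulators, and Smad7 among TGF-beta and BMP responsive genes. The TGF-beta responsive list also holds 2 members, Smad7 and Ltbp2. Of 30 TGF-beta responsive genes, 3 were higher and 1 lower with doxorubicin at an unadjusted limma p below 0.05, and 0 were called. That is 13.3% beside 11.9% of all genes. Their median average effect was 0.02, beside 0.12 for all genes. Postn, periostin, was the most abundant at a mean of 480.0 TPM. Cdkn1a, the cell-cycle inhibitor p21 that p53 also raises, stood at 15.2, 12.4 and 8.99 TPM with IgG1, 14.0, 10.7 and 29.3 with anti-PD-1, 54.8, 36.4 and 29.7 with DOX/IgG1, and 24.0, 13.7 and 67.6 with DOX/anti-PD-1. Every DOX/IgG1 tumor was above every tumor without doxorubicin. Its average effect was 1.19 (SE 0.36, limma unadjusted p = 0.00516, adjusted p = 0.250), and 1.07 without DOX/IgG1 tumor 1, beside 1.15 for the actin-binding Tagln and 0.68 for the integrin Itgav.

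The same list split by comparison. In DOX/anti-PD-1 against anti-PD-1, 23 of 29 tested genes were higher, with a median of 0.30, and 6 had an unadjusted limma p below 0.05 (20.7%). Of all genes, 59.98% were higher and 8.63% had such a p. In anti-PD-1 against IgG1, 23 of 28 were lower, with a median of −0.26, and 5 had an unadjusted limma p below 0.05 (17.9%), all lower. Of all genes, 47.2% were higher and 4.6% had such a p. These 2 comparisons share the anti-PD-1 tumors. In DOX/IgG1 against IgG1, 10 of 28 were higher, with a median of −0.13, and 5 had an unadjusted limma p below 0.05 (17.9%), 2 higher and 3 lower. Of all genes, 60.6% were higher and 7.73% had such a p. The interaction median was 0.32, beside −0.01 for all genes, with 5 genes at an unadjusted limma p below 0.05 (16.7% beside 4.71%) and 0 called.

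Col1a1, a chain of type I collagen, shows this most. It stood at 432, 527 and 745 TPM with IgG1, 238, 234 and 132 with anti-PD-1, 149, 339 and 274 with DOX/IgG1, and 219.6, 488 and 525 with DOX/anti-PD-1. The IgG1 tumors were above the 3 anti-PD-1 and the 3 DOX/IgG1 tumors, and of the DOX/anti-PD-1 tumors 2 lay among the IgG1 values and 1 among the anti-PD-1 values. Col1a1 was singled out after its values were seen.

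Of 20 BMP target genes, 6 of which are members, 14 were tested. Of these, 0 had an unadjusted limma p below 0.05 in the doxorubicin average, beside 11.9% of all genes. Their median was 0.40 and 10 of them were higher, beside 0.12 and 63.3% for all genes. Gata3, the luminal transcription factor, was the most abundant at a mean of 149 TPM. Id4, an inhibitor of DNA binding, stood at 8.87, 4.29 and 14.0 TPM with IgG1, 5.93, 7.23 and 7.18 with anti-PD-1, 1.37, 33.5 and 58.8 with DOX/IgG1, and 28.3, 14.1 and 48.3 with DOX/anti-PD-1. DOX/IgG1 tumor 1 was the lowest of all and the other 5 doxorubicin tumors were the highest. Its average of 1.37 (limma adjusted p = 0.421) became 2.08 without that tumor (limma adjusted p = 0.0159, range over all alternatives 0.0159 to 0.642), which passed the test. Dlx5 and Id1 had averages of −0.86 and 0.66. Hamp was listed at 0.

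Extracellular regulators had the largest share of small p-values of the 5 pathway lists. Of 40 genes, 34 were tested, 7 were higher and 2 lower with doxorubicin at an unadjusted limma p below 0.05, which is 26.5% beside 11.9% of all genes, and 0 were called. Their median was 0.17, beside 0.12 for all genes. Without DOX/IgG1 tumor 1 there were 12 such regulators, 7 TGF-beta responsive genes, 3 BMP responsive genes and 7 intracellular modulators, while the share of all genes was 15.4%. Dcn, decorin, and Bgn, biglycan, are matrix proteoglycans that bind TGF-beta, and Htra1 is a protease that cleaves such matrix proteins. Dcn stood at 95.4, 72.9 and 127 TPM with IgG1, 90.9, 98.2 and 93.7 with anti-PD-1, 76.8, 619 and 323 with DOX/IgG1, and 205, 175 and 201 with DOX/anti-PD-1. Htra1 stood at 42.6, 31.1 and 39.7 TPM with IgG1, 21.5, 28.4 and 28.3 with anti-PD-1, 25.6, 163 and 175 with DOX/IgG1, and 85.5, 45.8 and 64.1 with DOX/anti-PD-1. For both genes, DOX/IgG1 tumor 1 lay among the tumors without doxorubicin and the other 5 doxorubicin tumors lay above all of them.

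The doxorubicin average was 1.20 for Dcn (SE 0.37, limma unadjusted p = 0.00643, adjusted p = 0.262) and 1.25 for Htra1 (SE 0.39, limma unadjusted p = 0.00615, adjusted p = 0.261). Without DOX/IgG1 tumor 1 both passed the test, Dcn at 1.62 (limma adjusted p = 0.00331, range over all alternatives 0.00331 to 0.427) and Htra1 at 1.70 (limma adjusted p = 0.00284, range 0.00284 to 0.425). In that fit 7 pathway genes were called, the others being Id4, Tagln at 1.44, Acta2, Fmod and Zeb1, all higher. Of all 14735 genes tested, 301 (2.04%) were called there. Bgn, the most abundant regulator at a mean of 634 TPM, had an average of 0.84, and 1.01 without that tumor.

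Chrdl2, a chordin-like BMP antagonist, was lower with doxorubicin. It stood at 26.7, 14.8 and 31.4 TPM with IgG1, 17.0, 10.2 and 14.5 with anti-PD-1, 17.0, 11.7 and 6.94 with DOX/IgG1, and 3.82, 4.19 and 12.1 with DOX/anti-PD-1. Its average was −1.04 (SE 0.32, limma unadjusted p = 0.00629, adjusted p = 0.261), and −1.18 without DOX/IgG1 tumor 1.

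**Figure D5:**
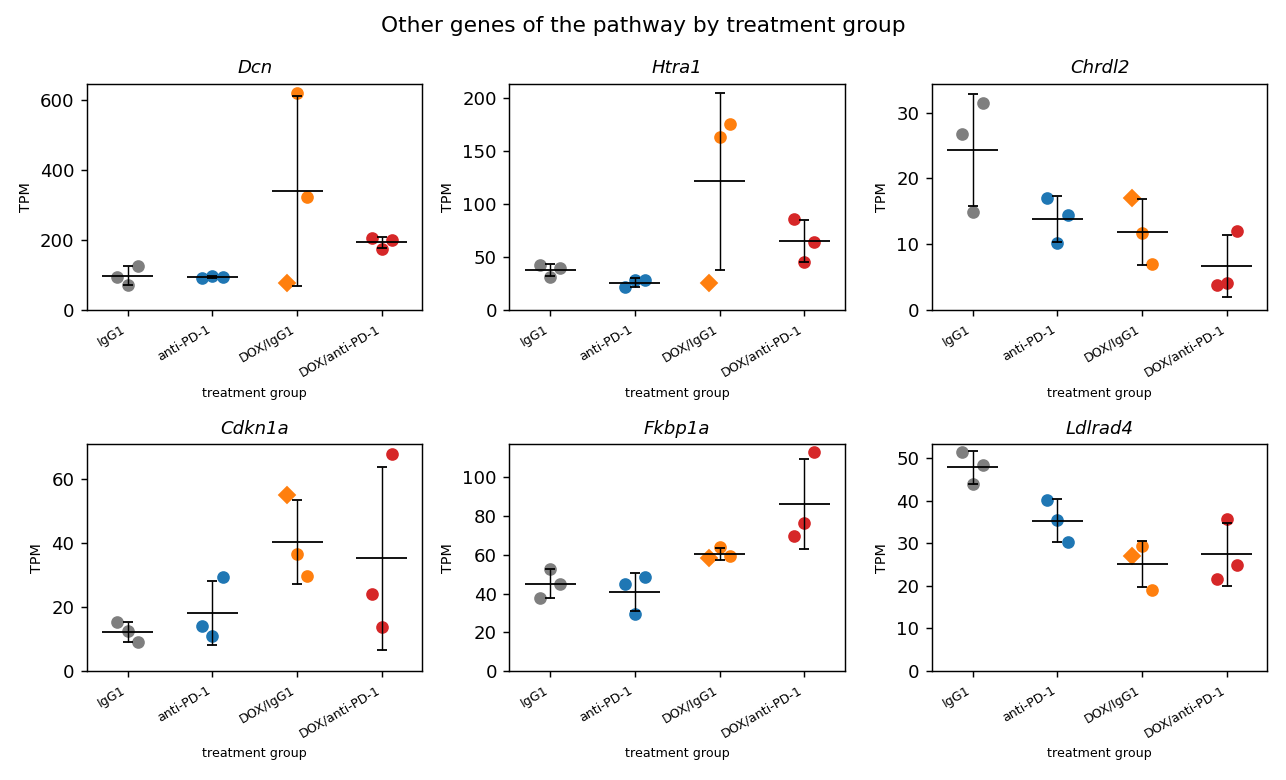
TPM of 6 other pathway genes in the 12 tumors by treatment group; each dot is a tumor, the diamond is DOX/IgG1 tumor 1, and the line with bars is the group mean ± SD (n = 3). Fkbp1a is at 58.3 TPM or more in all 6 doxorubicin tumors and at 52.7 TPM or less in the 6 others.

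Among 35 intracellular modulators, 34 were tested, 4 were higher and 1 lower at an unadjusted limma p below 0.05 (14.7%) and 0 were called, with a median of 0.08, beside 11.9% and 0.12 for all genes. Fkbp1a encodes FKBP12, which binds type I receptors and holds them inactive. It stood at 37.6, 52.7 and 44.9 TPM with IgG1, 44.8, 29.6 and 48.3 with anti-PD-1, 58.3, 64.2 and 59.2 with DOX/IgG1, and 69.5, 76.4 and 113 with DOX/anti-PD-1, so the 6 doxorubicin tumors were above the 6 others. Its average was 0.74 (SE 0.18, limma unadjusted p = 0.00114, adjusted p = 0.208), the smallest p of the pathway genes, and 0.76 without DOX/IgG1 tumor 1 (limma adjusted p = 0.0883, range over all alternatives 0.0883 to 0.362), under the adjusted limit and short of the fold limit.

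Ldlrad4, which limits TGF-beta signaling by binding receptor-activated Smads, stood at 51.3, 43.8 and 48.2 TPM with IgG1, 40.2, 35.4 and 30.3 with anti-PD-1, 27.0, 29.3 and 18.9 with DOX/IgG1, and 21.5, 35.7 and 24.9 with DOX/anti-PD-1. The IgG1 tumors were the highest and DOX/anti-PD-1 tumor 2 overlapped the anti-PD-1 group. Its average was −0.65 (SE 0.18, limma unadjusted p = 0.00341, adjusted p = 0.232), and −0.68 without DOX/IgG1 tumor 1. Tab1, a partner of the kinase TAK1, had an average of 0.70, and Usp9x, a deubiquitinase of Smad4, was the most abundant at a mean of 225 TPM. Of 6 further ligands and receptors 3 were tested, Amhr2, Mstn and Lefty1, with a median of −0.08 and 0 at an unadjusted limma p below 0.05, and Nodal was listed at 0.

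Whole tumors hold many cell types, and fewer cells of a type cannot be told apart from less RNA per cell. Fibroblast markers also differed between tumors. The sum of 10 fibroblast markers, of which Col1a1 was the most abundant and none was at 0 throughout, was 1257, 1201 and 1883 TPM with IgG1, 984, 885 and 743 with anti-PD-1, 573, 1928 and 1379.9 with DOX/IgG1, and 1141, 1492 and 1687 with DOX/anti-PD-1. DOX/IgG1 tumor 1 had the lowest sum. In DOX/anti-PD-1 against anti-PD-1, 10 of 10 were higher, 5 of them at an unadjusted limma p below 0.05. Of all genes, 59.98% were higher there and 8.63% had such a p. In anti-PD-1 against IgG1 10 of 10 were lower, 2 of them at such a p. Of all genes, 47.2% were higher there and 4.6% had such a p. In DOX/IgG1 against IgG1, 6 were higher and 4 lower, 1 of the lower ones at an unadjusted limma p below 0.05. In the doxorubicin average 8 of 10 were higher, 1 at such a p. Of all genes, 60.6% were higher in DOX/IgG1 against IgG1 and 63.3% in the doxorubicin average, and 7.73% and 11.9% had such a p. These shares of all genes also stand beside the marker counts that follow. Col1a1, Col1a2 and Col3a1 are also on the TGF-beta target list and Dcn on that of extracellular regulators, and Acta2 is both a basal marker and a TGF-beta responsive gene.

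Adipocyte markers, led by Cfd at a mean of 147 TPM, summed to 115, 384 and 318 TPM with IgG1, 168, 125 and 189 with anti-PD-1, 207, 1035 and 166 with DOX/IgG1, and 955, 331 and 291 with DOX/anti-PD-1. The highest sums were those of DOX/IgG1 tumor 2 and DOX/anti-PD-1 tumor 1, the same tumors that were highest for Acvr1c. In DOX/anti-PD-1 against anti-PD-1, 10 of 10 were higher, 7 of them at an unadjusted limma p below 0.05, in DOX/IgG1 against IgG1 8 of 10 with 0 at such a p, and in the average 9 of 10 with 2. Basal and myoepithelial markers, led by Acta2 at a mean of 207 TPM, summed to 477, 181 and 404 TPM with IgG1, 209, 329 and 313 with anti-PD-1, 229, 699 and 951 with DOX/IgG1, and 434, 475 and 565 with DOX/anti-PD-1. There 8 of 8 were higher in DOX/anti-PD-1 against anti-PD-1, 4 at an unadjusted limma p below 0.05, 7 of 8 in DOX/IgG1 against IgG1 with 0, and 8 of 8 in the average with 0. The part of these cell types in the levels of Smad3, Tgfbr3, Acvr1c, Bmp1, Dcn and Htra1 was not tested.

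Other marker lists varied as well, given as the lowest and highest sum over the 12 tumors. Luminal epithelium ran from 2535 to 4359 TPM, macrophages from 262 to 448, Schwann cells from 87.2 to 198 and proliferation genes from 116 to 593. Pericyte and smooth muscle markers summed to 195, 159 and 226 TPM with IgG1, 182, 164 and 199 with anti-PD-1, 279, 299 and 355 with DOX/IgG1, and 209, 239.7 and 254 with DOX/anti-PD-1. These sums were higher in every tumor of each doxorubicin group than in every tumor with the same antibody alone. Single markers went both ways, with 6 higher and 2 lower in DOX/IgG1 against IgG1. Both in DOX/anti-PD-1 against anti-PD-1 and in the doxorubicin average, 5 were higher and 3 lower. Mcam, the most abundant, alone gave 192 of the 279 TPM in DOX/IgG1 tumor 1. Endothelium was lowest in anti-PD-1 tumor 2, at 125 TPM. Of its 10 markers 9 were higher in DOX/anti-PD-1 against anti-PD-1, 2 at an unadjusted limma p below 0.05. In anti-PD-1 against IgG1 8 of these markers were lower, and in DOX/IgG1 against IgG1 4 were higher and 6 lower. Skeletal muscle ran from 0.81 to 1009 TPM and salivary gland from 182 to 1016, with the largest ratio of highest to lowest in skeletal muscle. T cells ran from 10.3 to 63.0 TPM, NK cells from 7.53 to 44.7, B cells from 1.44 to 15.2 and neutrophils from 1.48 to 15.2, with Ly6g listed at 0.

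In the doxorubicin average, 6 of 7 tested T cell markers were higher, 2 at an unadjusted limma p below 0.05. There too 6 of 7 Schwann cell markers were higher, 4 at an unadjusted limma p below 0.05. Of luminal markers 8 of 10 were lower, 3 at such a p, and 9 of 10 proliferation genes were lower, 2 at such a p. Of all genes, 63.3% were higher in this average and 11.9% had such a p. In DOX/IgG1 against IgG1, 10 of 10 proliferation genes were lower, with a median of −0.82, whereas in DOX/anti-PD-1 against anti-PD-1 6 were higher and 4 lower, with a median of 0.20. Salivary gland markers went both ways. In DOX/IgG1 against IgG1, 3 were higher and 2 lower at an unadjusted limma p below 0.05, the lower ones including Aqp5, the most abundant. Their sum, of which Aqp5 gave 56.3%, averaged 732 TPM with IgG1, 784 with anti-PD-1, 458 with DOX/IgG1 and 443.7 with DOX/anti-PD-1. Less abundant markers differed from this sum. Bpifa2 stood at 14.4, 21.3 and 53.7 TPM with DOX/IgG1 and at 0 in every other tumor. Smr3a stood at 16.6, 10.2 and 14.8 TPM with DOX/IgG1, and elsewhere only anti-PD-1 tumor 3 was above 0, at 2.76 TPM. limma called 1 salivary gland marker in the average and 2 in DOX/IgG1 against IgG1, all higher, 1 in the anti-PD-1 average and 1 in the interaction, both lower, and 0 markers of the other lists.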

How the data were processed

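RNA of 12 whole tumors, 3 in each of 4 treatment groups, was sequenced, and the deposited values were log2(TPM + 1) with decimal commas. Whether each tumor came from a different mouse was not stated. The authors trimmed reads with skewer, used STAR for alignment to mm10 and RSEM for quantification; versions were not given, and the deposited files list 21960 genes without counts, so depth and the precision it gives are unknown. Values were turned back into TPM for levels. limma 3.58.1 in R 4.3.3 was fitted to log2(TPM + 1) of genes at 1 TPM or more in at least 3 tumors, with eBayes(trend=TRUE) and p adjusted over all tested genes by Benjamini and Hochberg. A gene was called when its adjusted p was below 0.1 and its log2 fold change was larger than 1 in size. The 4 pairwise comparisons were fitted on 6 tumors each, and the doxorubicin average, the anti-PD-1 average and the interaction on all 12. The fits were tested on simulated data.

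Members and lists (5 of pathway genes, 15 of cell-type markers) were chosen with earlier results of these data known. Members given in every tumor were the highest in each role, those called, those with an unadjusted p below 0.05 in the averages or the interaction, and those whose 6 doxorubicin tumors did not overlap the others; the largest rise and fall per comparison served as examples. Of each pathway list, the most abundant gene, those called and up to 3 with the smallest p in the doxorubicin average were named.

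Alternatives were a pseudocount of 0.1 TPM, no filter, scaling by the median of ratios, the replicate number as a block, eBayes without trend, a fit on all 12 tumors for the pairwise comparisons, and each tumor left out in turn with the tested genes held fixed. An adjusted p below 0.1 with no limit on the fold change was added after seeing the data.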

Additional observations from a re-analysis of the deposited data

Results flagged for a closer look

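Acvr2b had an interaction of doxorubicin and anti-PD-1 of 1.66 on the log2 scale. It was flagged because the antibody difference pointed opposite ways. All 3 anti-PD-1 tumors were lower than the 3 IgG1 tumors, and all 3 DOX/anti-PD-1 tumors were higher than the 3 DOX/IgG1 tumors. Groups did not overlap for 9.88% of all genes in the first of these comparisons and for 10.2% in the second. Only members were searched for opposite directions, so the share of all genes with this pattern is not known. The limma interaction test gave an adjusted p of 0.993.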

How the results depend on the processing

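With unknown depth and groups that differ in starting size, first dose and schedule, doxorubicin differences cannot be told apart from those of the schedule, and RNA levels say nothing of protein or of active ligand. Members called by limma stayed at 0 under every alternative and with each tumor left out, beside 5 at an unadjusted p below 0.05 in the doxorubicin average. Of 2600 values of 178 results, 2476 kept their side of the test or, for counts and medians, stayed within a set limit. Counts or medians moved further in 120. The other 4 passed the test only under an alternative, Tagln, Id4, Htra1 and Dcn in the doxorubicin average without DOX/IgG1 tumor 1. In that fit 7 pathway genes passed, counting Acta2, Fmod and Zeb1, which are not among these results. Direction was compared only for named genes called in the main fit, and 0 were called there. A change of sign in a gene not called therefore counts as kept. Counts of genes called moved as follows. DOX/IgG1 against IgG1, 5: 2 with the replicate block, 13 without trend, 0 to 122 with a tumor left out. DOX/anti-PD-1 against anti-PD-1, 0: 3 without trend, 0 to 4 with a tumor left out. Anti-PD-1 against IgG1, 0: 1 without trend, 0 to 4 with a tumor left out. DOX/anti-PD-1 against DOX/IgG1, 0: 3 with the median of ratios, 3 without trend, 2 with all 12 tumors, 0 to 4 with a tumor left out. Doxorubicin average, 13: 6 with a pseudocount of 0.1, 0 to 301 with a tumor left out. Anti-PD-1 average, 1: 0 with a pseudocount of 0.1, the median of ratios or the block, 3 without trend, 0 to 5 with a tumor left out. Interaction, 1: 0 with a pseudocount of 0.1, the median of ratios or the block, 3 with no filter, 3 without trend, 0 to 1 with a tumor left out. With no fold limit, chosen after seeing the data, the doxorubicin average had 16. Replicate numbers were not treated as pairs: of 18 same-number pairs 4 correlated above 0.1, and 8 of 12 tumors correlated best with their own number.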
